A study of Mus musculus with 32 samples.

Results

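Liver endothelial cells were compared between livers that carried colorectal metastases and livers that did not. Of the 32 channels of the series, 8 were chosen by their labels for this comparison. The 4 channels called ET held RNA of endothelial cells from the tumor microenvironment (TME), and the 4 called EC held RNA of control endothelial cells. The other 24 channels held Ito (hepatic stellate) cells, Kupffer cells and whole tumors and were used here only as comparisons. Per the study's methods, young adult male Balb/c mice were injected in the spleen with C26 cells, a colon carcinoma line of the same mouse strain, and control mice were given saline without tumor cells. All livers were taken at a single set time. Endothelial cells were enriched from collagenase-perfused liver on Percoll density gradients and could be kept in culture for up to a day, so both groups shared perfusion, gradient and culture. The study checked its fractions by immunochemistry and reported each to be mostly the intended cell type. The material was still an enriched fraction and not a pure cell type.

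ET and EC of the same replicate number were hybridized to the same 2-colour array, and all 4 arrays lay on 1 slide together with those of the Ito cells. EC was always labelled with Cy3 and ET always with Cy5, so dye and TME cannot be told apart in any value below. Between 45.58% and 57.13% of the 59305 spots of a channel were well above background by the scanner software's own test, and none were saturated. A probe that passed this test on all 8 channels is called bright here, and 23483 probes with 17447 gene names were bright. The number of arrays limits the precision.

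The 4 EC channels did not differ as 4 distinct samples would. EC replicates 1 and 4 differed beyond the 95% noise limit, which was set by repeated spots within an array, at 6.95% of the 259 probes spotted 10 times, where noise alone gives 5%. EC replicates 2 and 3 did so at 10% of them, while the other EC pairs did so at 79.9% to 82.6%. The 1-4 pair and the 2-3 pair thus differed close to the spotting noise, and each was counted as 1 sample by its mean, which left 2 EC samples against 4 ET samples. ET replicates 1, 3 and 4 were also near each other, with 30% to 49.4% of probes beyond the limit, and ET replicate 2 stood apart from them at 77.5% to 82.2%. ET replicate 2 was over 2-fold from the mean of the other ET channels at 1057 bright probes (4.5%). The labels do not say that replicates came from separate animals, so p-values measure only the spread between these samples, which may be technical.

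Liver sinusoidal endothelial cells (LSECs) line the blood channels of the liver, carry open pores without a basement membrane, and clear waste molecules from blood through scavenger receptors such as stabilins, the mannose receptor and C-type lectins. Capillary endothelium of other organs is closed instead, rests on a matrix and carries caveolae, CD34 and von Willebrand factor. Hepatocytes, which lie behind the sinusoidal lining, make most plasma proteins and the drug-metabolizing cytochromes P450.

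The upstream sequences of 4 genes that lead the results are shown to place the genes that fell beside one that rose. They are the 250 bases before the RefSeq transcription start of the fatty acid carrier *Fabp1* (chr6:71199629-71199878), of the cytochromes P450 *Cyp2a4* (chr7:26306942-26307191) and *Cyp2e1* (chr7:140763569-140763818), all lower in ET, and of the calcium-binding protein gene *S100a8* (chr3:90668821-90669070), higher in ET. All are from RefSeq on GRCm38.p6 and on the plus strand, and capitals mark TATAAA, the TATA box, and GTTAAT, a core of the motif of the hepatocyte factor HNF1.
Fabp1: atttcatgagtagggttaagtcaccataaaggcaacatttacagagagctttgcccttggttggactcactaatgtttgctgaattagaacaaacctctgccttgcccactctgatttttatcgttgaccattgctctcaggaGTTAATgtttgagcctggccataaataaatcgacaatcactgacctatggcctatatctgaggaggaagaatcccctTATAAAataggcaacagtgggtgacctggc
Cyp2a4: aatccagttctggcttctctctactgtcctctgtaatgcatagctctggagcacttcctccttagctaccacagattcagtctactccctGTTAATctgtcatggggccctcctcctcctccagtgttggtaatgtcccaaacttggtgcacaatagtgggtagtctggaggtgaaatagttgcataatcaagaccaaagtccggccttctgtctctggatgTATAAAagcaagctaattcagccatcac
Cyp2e1: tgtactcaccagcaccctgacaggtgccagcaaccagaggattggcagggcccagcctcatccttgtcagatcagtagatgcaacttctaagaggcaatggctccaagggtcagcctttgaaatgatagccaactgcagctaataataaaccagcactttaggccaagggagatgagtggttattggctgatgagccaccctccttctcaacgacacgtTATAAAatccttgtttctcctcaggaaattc
S100a8: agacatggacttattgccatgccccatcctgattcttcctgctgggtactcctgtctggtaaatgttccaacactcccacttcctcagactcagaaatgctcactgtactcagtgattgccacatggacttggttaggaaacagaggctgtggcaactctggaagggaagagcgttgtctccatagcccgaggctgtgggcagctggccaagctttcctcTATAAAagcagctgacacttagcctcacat
TATAAA began 30, 28, 31 and 30 bases before the start of *Fabp1*, *Cyp2a4*, *Cyp2e1* and *S100a8*. GTTAAT was present 107 bases before the start of *Fabp1* and 160 bases before that of *Cyp2a4*. Over all 32851 promoters of this length and searched on both strands, TATAAA was found in 12.4%, GTTAAT in 6.43% and CCAAT in 33.8%. Of the 12 genes with the largest falls that had a promoter in the table, 5 held TATAAA, 2 GTTAAT and 4 CCAAT. Of the 12 with the largest rises, 5 held TATAAA, 1 GTTAAT and 6 CCAAT. These matches describe letters and not binding sites.

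All levels below are quantile-normalized log2 signals, and all differences are ET minus EC on the log2 scale from limma, with Benjamini-Hochberg adjustment over 55664 probes. Of the 23483 bright probes, 197 (0.839%) were up-regulated and 158 (0.673%) down-regulated at an adjusted p under 0.05. By gene name and brightest probe these were 177 (1.01%) and 131 (0.751%) of 17447. All 355 called probes changed the same way on all 4 arrays. They were chosen by these same values, and the differences of arrays 1 and 4 correlated by 0.92, so this is no separate check. Quantile normalization holds the middle of the distribution in place, and the median difference was 0.01 over bright probes, with 96.6% of them within 2-fold. At an unadjusted p under 0.05, 4214 bright probes (17.9%) differed. The calls depended on how channels were counted. With each of the 8 channels taken as a sample, 1096 probes (4.67%) were called higher and 970 (4.13%) lower, and with the 3 near-alike ET channels also averaged, leaving 2 against 2, none passed by limma, with 2234 at an unadjusted p under 0.05. Leaving out array 1, 3 or 4 left 6, 20 and 4 higher and 7, 29 and 4 lower probes. The share of calls that were higher was 55.5%, and 27.1% when channels were scaled to their 75th percentile instead, with 16 higher and 43 lower probes.

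**Figure D1:**
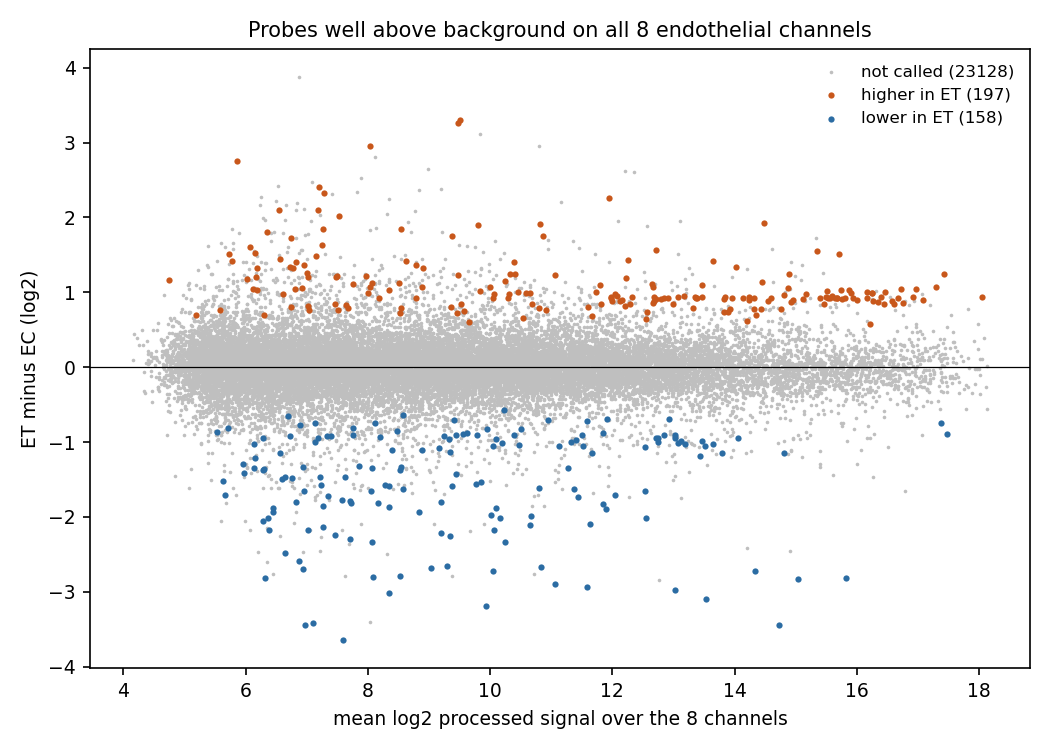
Difference between ET and EC (log2, vertical axis) against the mean log2 level over the 8 channels (horizontal axis) for every bright probe, with called probes in color. The 197 called higher and 158 called lower probes lie above and below a cloud centred on 0.01.

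The called falls were deeper at the median than the called rises. Among called genes with an official symbol, 94 were down-regulated with a median difference of -1.53, and 73 of them by at least 2-fold. The 128 up-regulated genes had a median of 0.98, and 57 of them rose by at least 2-fold. Of the 197 called higher probes, 74 with a mean level over 12 lay at 0.8 to 1.1 and are set beside the dye below. The largest fall was that of the P450 gene *Cyp3a11* (-3.64, 12.4-fold) and the largest rise that of the BMP antagonist *Grem1* (3.30, 9.87-fold).

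**Figure D2:**
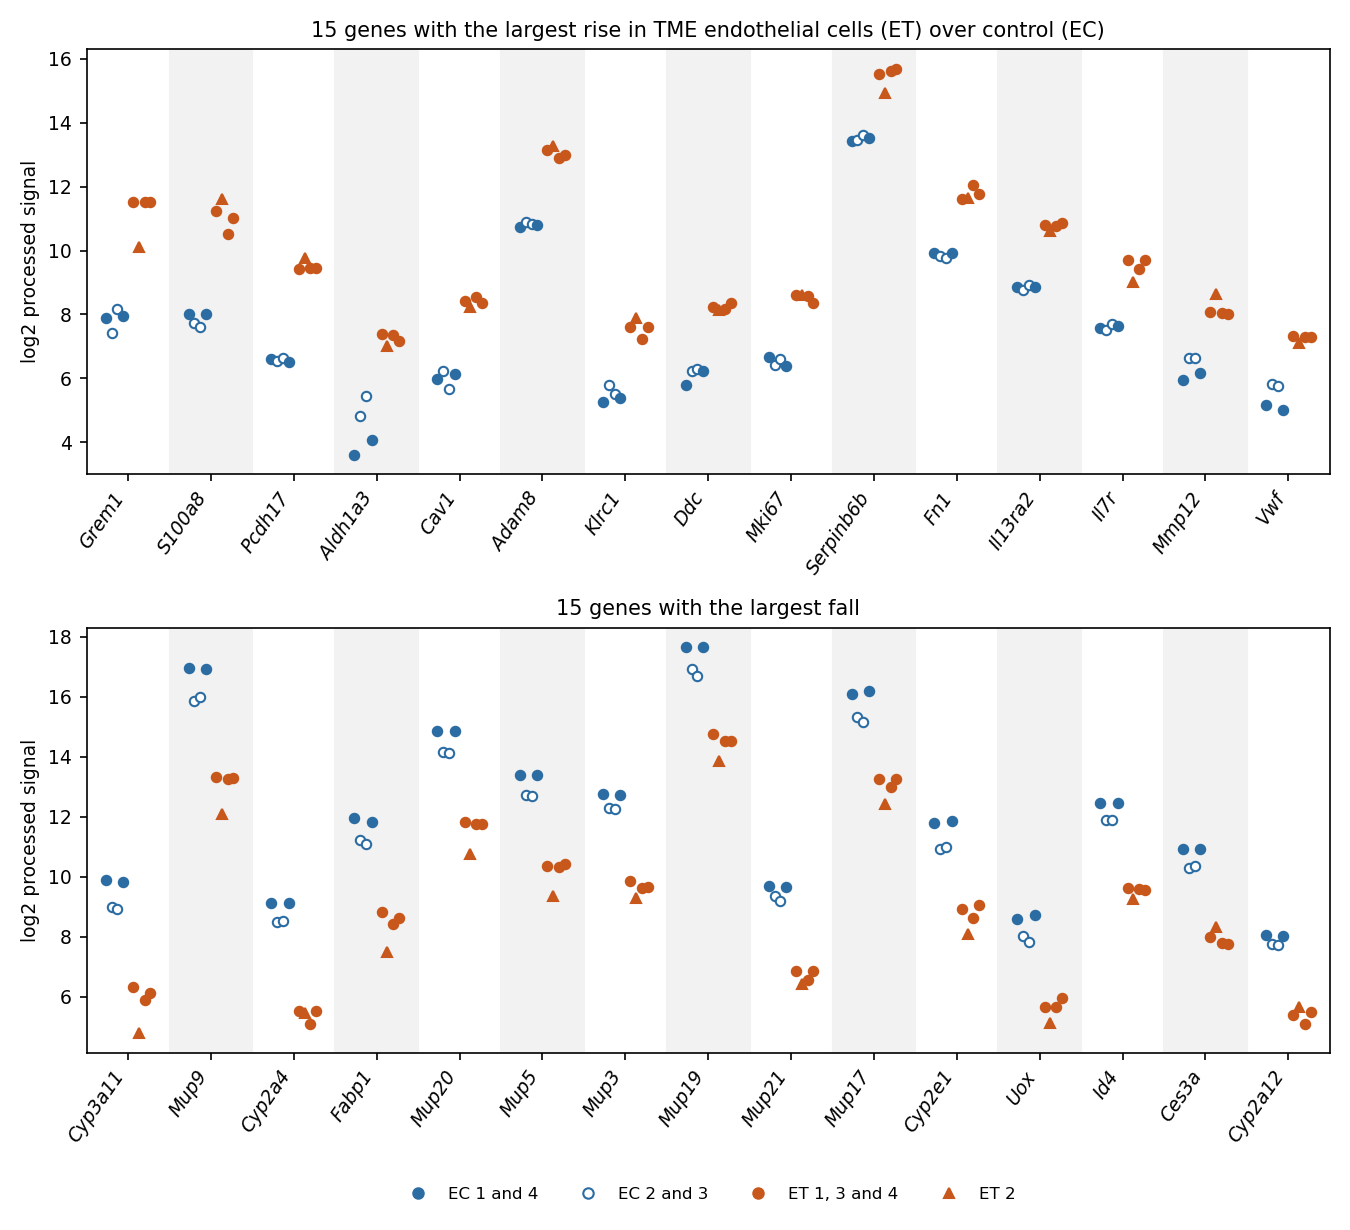
Log2 level in each of the 8 channels for the 15 genes that rose most and the 15 genes that fell most. EC replicates 1 and 4 (filled blue) and 2 and 3 (open blue) sit on one side and the ET channels (orange, with replicate 2 as a triangle) on the other side, and the groups do not overlap for any of the genes, which were chosen for this difference.

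Endothelial identity was checked first with 4 markers. *Pecam1*, the CD31 adhesion molecule of all endothelium, read 11.99, 11.90, 11.88 and 11.98 in EC replicates 1 to 4 and 11.83, 11.33, 11.99 and 11.89 in ET. *Stab2*, the hyaluronan scavenger receptor of sinusoidal endothelium (chr10:86303982-86304041, mm9, minus strand), read 10.77, 11.22, 11.29 and 10.69 in EC and 11.51, 11.65, 11.83 and 11.56 in ET. Both were bright in every channel, as were markers of other liver cells described below. The *Pecam1* groups overlapped, and the difference of -0.18 ± 0.20 (SE) had an adjusted p of 0.90. The *Stab2* groups did not overlap, but the difference of 0.65 ± 0.18 did not pass (adjusted p = 0.226), and its 3 bright probes gave 0.29 to 0.92.

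*Edn1* encodes endothelin 1, a peptide that constricts sinusoids, and *Apln* encodes apelin, a peptide of angiogenic tip cells. *Edn1* (chr13:42403101-42403160, mm9) read 9.60, 10.63, 10.56 and 9.62 in EC and 11.17, 13.29, 11.42 and 11.31 in ET. *Apln* read 6.37, 9.03, 8.94 and 6.31 in EC and 9.79, 11.67, 9.94 and 9.80 in ET. All ET channels lay above all EC channels for both genes, but the EC pairs stood well apart, and ET replicate 2 was far above the other ET channels. The differences were 1.70 ± 0.69 for *Edn1* (adjusted p = 0.421) and 2.64 ± 0.91 for *Apln* (adjusted p = 0.326), and neither passed. By a two-sided exact permutation test over 2 EC and 4 ET samples, *Stab2*, *Edn1* and *Apln* each had p = 0.133, the smallest this design allows, and *Pecam1* had p = 0.667. The receptor gene *Ednrb* differed by 0.26 (adjusted p = 0.907). The apelin receptor *Aplnr* was well above background in 1 of 8 channels.

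Genes of LSEC identity were mostly lower in ET, but 1 passed the test. Of 24 listed genes, 21 were bright, 18 of which lay below 0, with a median difference of -0.71 against 0.02 over all bright genes. One of the 21 fell and none rose. In 14 of the 21, all 4 ET channels lay below all 4 EC channels, a pattern found in 10.9% of all bright genes. With each channel counted as a sample, 10 were called lower, against 4.3% of bright genes. Without ET replicate 2, 3 were, against 217 of all 23483 bright probes.

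The gene that fell was *Clec1b*, which encodes the C-type lectin receptor CLEC-2. It read 12.95, 12.68, 12.72 and 12.97 in EC and 10.85, 11.40, 10.67 and 10.85 in ET, so that the groups were clearly apart. Its difference was -1.89 ± 0.22 (adjusted p = 0.0354), and all 3 bright probes were called. The lectin *Clec4g* had a difference of -1.74 (adjusted p = 0.235), with ET replicate 2 at 10.25 and the other ET channels at 11.75 to 11.81. *Gpr182*, the atypical chemokine receptor of sinusoidal endothelium, ranged from 12.38 to 13.07 in EC and from 10.84 to 11.32 in ET, a difference of -1.59 ± 0.23 (adjusted p = 0.0533). The mannose receptor *Mrc1* differed by -1.44 (adjusted p = 0.159) and the IgG receptor *Fcgr2b* by -1.14 (adjusted p = 0.177). The hyaluronan receptor *Lyve1* overlapped between the groups (-0.07, adjusted p = 0.982). *Stab1*, the relative of *Stab2*, differed by -0.71 and did not pass either (adjusted p = 0.237).

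**Figure D3:**
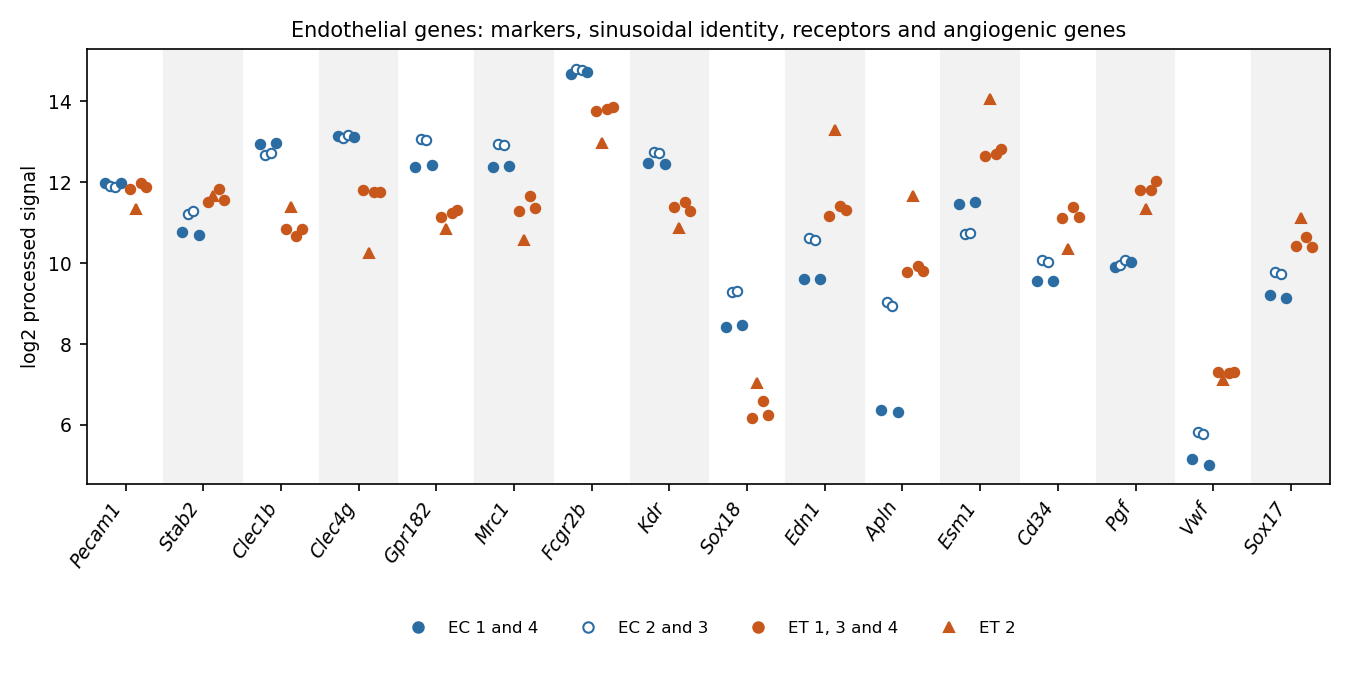
Log2 level in each channel for endothelial genes in EC (blue) and ET (orange, replicate 2 as a triangle). *Clec1b* sits at 12.68 to 12.97 in EC and 10.67 to 11.40 in ET, *Pecam1* overlaps, and *Edn1* spreads from 11.17 to 13.29 in ET.

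Of 23 pan-endothelial genes, all bright, none passed, while 3 were called lower without ET replicate 2, against 217 of all 23483 bright probes. Their median difference was -0.42, and 19 lay below 0. The transcription factor gene *Sox18* read 8.41, 9.29, 9.32 and 8.46 in EC and 6.16, 7.04, 6.59 and 6.25 in ET, a difference of -2.36 ± 0.35 (adjusted p = 0.0571). *Esam*, a junction molecule, differed by -1.19 ± 0.18 (adjusted p = 0.0582), and *Kdr*, the main VEGF receptor, by -1.33 ± 0.21 at its brightest probe (adjusted p = 0.0633) and -0.35 at the other. *Nos3*, endothelial nitric oxide synthase, differed by -0.76 (adjusted p = 0.137). The junctional cadherin *Cdh5* differed by -0.35 (adjusted p = 0.573), and the VEGF receptor *Flt1* by -0.01 with overlapping groups (adjusted p = 0.998). *Sox17*, an arterial transcription factor, read higher in ET (1.18, adjusted p = 0.148). With each channel counted as a sample, 8 of the 23 passed, 6 lower and 2 higher, against 4.3% and 5.14% of bright genes. In that fit the adjusted p was 0.00474 for *Sox18* and 0.00302 for *Esam*.

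Angiogenic and capillary genes lay mostly the other way. Of 17 bright members, 2 rose and none fell, with a median difference of 0.72, and in 11 all ET channels lay above all EC channels, against 12.8% of bright genes. *Pgf*, the placental growth factor that binds *Flt1*, read 9.91, 9.96, 10.08 and 10.04 in EC and 11.80, 11.35, 11.82 and 12.02 in ET. It rose by 1.75 ± 0.20 (3.36-fold, adjusted p = 0.0318). *Vwf*, the platelet-binding factor of capillary and venous endothelium, read 5.15, 5.82, 5.77 and 5.02 in EC and 7.31, 7.10, 7.29 and 7.30 in ET. It rose by 1.81 ± 0.21 (3.50-fold, adjusted p = 0.0338). Both were clear of the EC range in all 4 ET channels. *Esm1*, a tip cell proteoglycan, ranged from 10.72 to 11.50 in EC and from 12.64 to 14.07 in ET (1.95 ± 0.48, adjusted p = 0.18). *Cd34*, a sialomucin of capillaries, differed by 1.19 (adjusted p = 0.215). With each channel counted as a sample, 7 members were called higher and 2 lower, against 5.14% and 4.3% of bright genes, with *Esm1* (adjusted p = 0.0253) and *Cd34* (adjusted p = 0.035) among the higher. Without ET replicate 2 the adjusted p of *Vwf* was 0.0515.

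The 15 largest rises included *Cav1*, *Pcdh17* and *Fn1*. *Cav1*, the coat protein of caveolae (chr6:17289414-17289473, mm9), read 5.97, 6.22, 5.66 and 6.14 in EC and 8.43, 8.24, 8.54 and 8.37 in ET. It rose by 2.40 ± 0.11 (5.26-fold, adjusted p = 0.00393). *Pcdh17*, a protocadherin of cell adhesion (chr14:84933861-84933920, mm9), read 6.59, 6.54, 6.62 and 6.51 in EC and 9.42, 9.76, 9.46 and 9.45 in ET. It rose by 2.95 ± 0.12 (7.75-fold, adjusted p = 0.003), the lowest adjusted p among the 15 largest rises, with ET replicate 2 above the other ET channels. The matrix glycoprotein gene *Fn1* read 9.91, 9.84, 9.78 and 9.92 in EC and 11.61, 11.65, 12.06 and 11.76 in ET, and rose by 1.91 ± 0.15 (3.75-fold, adjusted p = 0.0152). It was the only one of 24 bright basement membrane and matrix genes that passed.

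*Grem1* read 7.90, 7.41, 8.17 and 7.95 in EC and 11.53, 10.11, 11.51 and 11.51 in ET (adjusted p = 0.0487). Its ET replicate 2 was lower than the others but still above every EC channel. *Aldh1a3*, which makes retinoic acid, rose by 2.75 (adjusted p = 0.0449, and 0.068 without ET replicate 2) from EC channels that spread from 3.60 to 5.45, the widest among the named rises that passed. *Ddc*, the aromatic amino acid decarboxylase, rose by 2.10 (adjusted p = 0.00547), and *Il13ra2*, the decoy receptor of interleukin 13, by 1.90 ± 0.10 (adjusted p = 0.00523). The protease inhibitor *Serpinb6b* rose by 1.93 (adjusted p = 0.0367). *Mki67*, a nuclear protein of dividing cells, rose by 2.02 ± 0.11 (adjusted p = 0.00547), with 2.33 at its second probe. It was the only one of 19 bright cell cycle genes called, while 17 of the 19 lay above 0 and their median was 0.55. The mean level of the 19 was 8.88 to 9.18 in EC. It was 9.44, 9.32 and 9.47 in ET replicates 1, 3 and 4 and 10.37 in ET replicate 2, so that channel weighed most.

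Genes of leukocytes were also among the rises. *S100a8*, a calprotectin subunit of neutrophils and monocytes, read 8.01, 7.72, 7.60 and 8.02 in EC and 11.23, 11.63, 10.52 and 11.01 in ET. It rose by 3.26 ± 0.32 (9.58-fold, adjusted p = 0.0249), with over 2 log2 units between the groups. Its partner *S100a9* ranged from 7.73 to 8.84 in EC and from 10.55 to 11.82 in ET (3.11 ± 0.47, adjusted p = 0.0585). Of 9 bright S100 genes *S100a8* alone passed. *Adam8*, a membrane metalloprotease of myeloid cells, rose by 2.26 (4.80-fold, adjusted p = 0.00696), and *Mmp12*, macrophage elastase, by 1.84 (adjusted p = 0.049). *Klrc1*, the NKG2A receptor of natural killer cells, rose by 2.10 (adjusted p = 0.0258), and the interleukin 7 receptor *Il7r* by 1.85 (adjusted p = 0.0366). *Cd8a*, which defines cytotoxic T cells, was not well above background in any EC channel and was so in all 4 ET channels, at least 4.70-fold higher (adjusted p = 0.039), where 0.645% of all probes were called higher. This bound sets the ET mean against the dimmest signal that passed the background test on the EC arrays.

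Markers of other cell types are given beside these rises, and their part in them was not tested. Of 14 neutrophil markers, 5 were bright, 1 of which (*S100a8*) rose, and their mean level was 9.02 to 9.55 in EC and 10.48 to 10.87 in ET. The granule gene *Ngp* was not well above background in EC, read 5.14 to 6.91 in ET and did not pass (adjusted p = 0.0736). Of 15 T and natural killer cell markers, 11 were bright and none of these passed, with a mean level of 8.34 to 8.53 in EC and 8.85 to 9.60 in ET. Granzyme A (*Gzma*) ranged from 10.95 to 11.17 in EC and from 12.98 to 14.60 in ET (adjusted p = 0.0788). Of 17 bright Kupffer cell and macrophage markers none passed, with a mean level of 11.45 to 11.57 in EC and 11.51 to 12.30 in ET. Their median difference was 0.47, with 13 above 0 and 4 below. In 6 of them all ET channels lay above all EC channels, against 12.8% of bright genes. With each channel counted as a sample, 2 were called higher, against 5.14% of bright genes. The Kupffer lectin *Clec4f* overlapped (-0.07). Of 16 bright stellate cell markers, 1 fell, the nerve growth factor receptor *Ngfr* (-1.72, adjusted p = 0.0376). Of 6 bright B and plasma cell markers, 1 fell, the immunoglobulin joining chain *Igj*, with 11.05 to 11.34 in EC and 8.93 to 9.45 in ET (-2.01, adjusted p = 0.016). In a mixed fraction, fewer cells of a type and less RNA per cell cannot be told apart.

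ET replicate 2 was also apart in red cell transcripts. The mean level of 5 bright erythroid genes was 10.23 to 11.14 in EC and 8.61 to 13.61 in ET, with 13.61 in replicate 2. The globin *Hba-a2* read 16.00 in ET replicate 2 and 9.68 to 10.97 in the other ET channels. *Epb4.9*, a red cell skeleton gene, was called higher at 1 probe (0.93) and read -0.42 at another. Of 5 bright platelet markers and 4 bright cholangiocyte markers, none passed.

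Hepatocyte transcripts made up most of the 15 largest falls. Of these genes *Cyp3a11*, *Cyp2e1*, *Cyp2a12* and *Ces3a* were on the hepatocyte lists, while *Cyp2a4*, *Fabp1*, *Uox* and 7 *Mup* genes were not, though hepatocytes are their known source in liver. Of 154 hepatocyte genes on the array, 92 were bright, of which 17 fell and 1 rose, against 0.751% and 1.01% of all bright genes. Their median difference was -0.69, and 73 of 92 lay below 0. In 45 all ET channels lay below all EC channels, against 10.9% of bright genes. With each channel counted as a sample, 40 were called lower and 5 higher, against 4.3% and 5.14% of bright genes. The mean level of the 92 genes was 8.56 to 8.88 in EC and 7.79 to 8.06 in ET, so no ET channel reached the lowest EC channel.

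The cytochromes P450, the oxidases of drug and steroid metabolism, had the lowest median of the 5 hepatocyte lists, at -1.87. Of 16 bright members 6 fell and none rose. *Cyp3a11*, the main drug-metabolizing CYP3A enzyme of mouse liver, ranged from 8.94 to 9.88 in EC and read 6.33, 4.78, 5.89 and 6.12 in ET, and fell by 3.64 (adjusted p = 0.0486). *Cyp2a4*, a steroid hydroxylase outside the list, read 9.11, 8.50, 8.52 and 9.13 in EC and 5.51, 5.45, 5.09 and 5.51 in ET, and fell by 3.42 ± 0.22 (adjusted p = 0.00895). *Cyp2e1*, the ethanol-inducible enzyme of the pericentral zone, read 11.81, 10.93, 10.99 and 11.86 in EC and 8.93, 8.10, 8.63 and 9.05 in ET, and fell by 2.72 (6.59-fold, adjusted p = 0.0444, and 0.0502 without ET replicate 2). In each of the 3 genes, the 1-4 pair of EC channels was above the 2-3 pair, and all ET channels were below both. *Cyp2a12* (-2.48, adjusted p = 0.0139), *Cyp2d26* (-1.87, adjusted p = 0.0178) and *Cyp2d10* (-1.86, adjusted p = 0.0302) also fell. *Cyp2c29*, an arachidonic acid epoxygenase, fell by 2.29 (adjusted p = 0.0496).

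**Figure D4:**
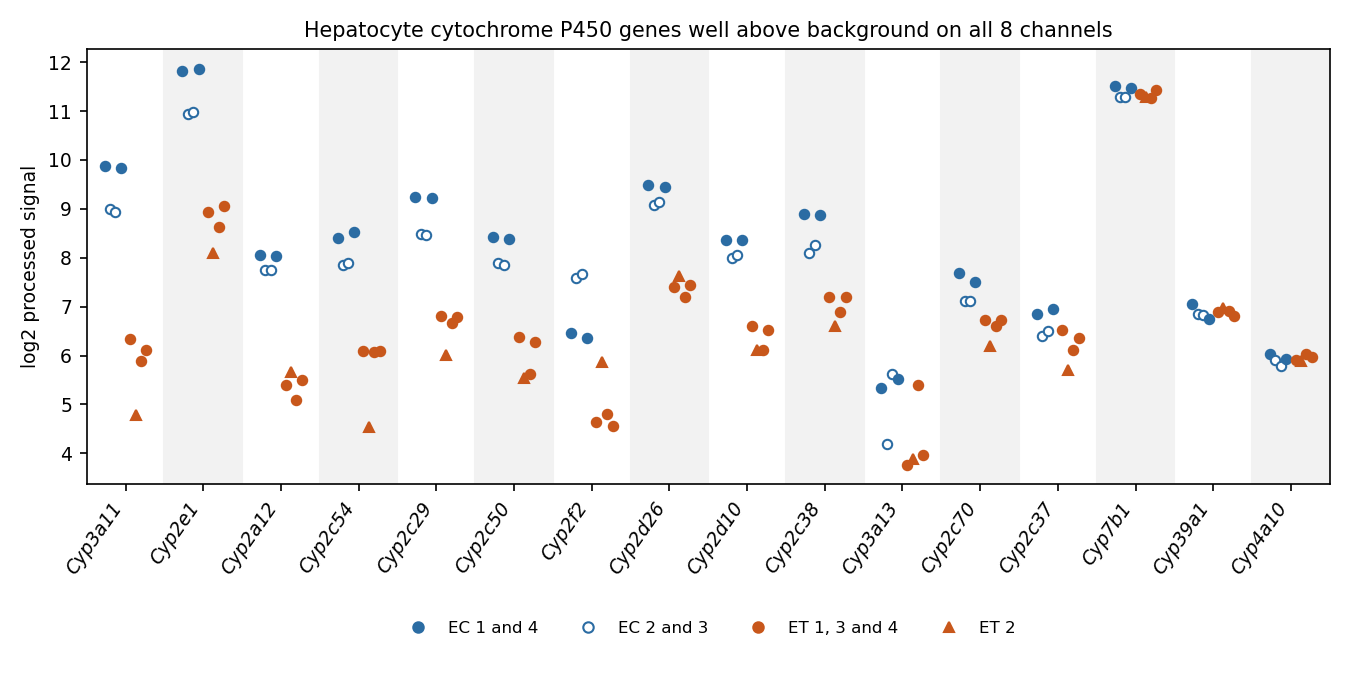
Log2 level in each channel for hepatocyte cytochromes P450 in EC (blue) and ET (orange, replicate 2 as a triangle). *Cyp2e1* lies at 10.93 to 11.86 in EC and 8.10 to 9.05 in ET, and *Cyp3a11* at 8.94 to 9.88 and 4.78 to 6.33.

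Major urinary proteins, small pheromone carriers that hepatocytes secrete, were the largest family among the falls. All 10 bright *Mup* probes, with 9 gene names, lay below 0, from -3.45 to -2.42, and 8 of them were called. *Mup9* read 16.98, 15.88, 15.99 and 16.92 in EC and 13.33, 12.09, 13.26 and 13.30 in ET, and fell by 3.45 (10.9-fold, adjusted p = 0.0475). *Mup21*, a dimmer probe, read 9.20 to 9.70 in EC and 6.42 to 6.87 in ET, and fell by 2.80 (adjusted p = 0.0113). *Mup3*, *Mup5*, *Mup17*, *Mup19* and *Mup20* fell by 2.90, 2.94, 2.72, 2.82 and 2.97. The genes are nearly identical in sequence, so which of them each probe read is uncertain, and the probes are not separate evidence.

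Carriers and enzymes of hepatocyte metabolism followed. *Fabp1*, the fatty acid carrier of hepatocytes (chr6:71154906-71154965, mm9), read 11.96, 11.22, 11.10 and 11.83 in EC and 8.83, 7.50, 8.41 and 8.61 in ET. It fell by 3.19 ± 0.43 (9.14-fold, adjusted p = 0.0447), with 2 log2 units and more between the groups. *Uox*, which breaks down uric acid, fell by 2.70 (adjusted p = 0.0316), and the carboxylesterases *Ces3a* and *Ces2c* by 2.66 (adjusted p = 0.0193) and 2.24 (adjusted p = 0.0376). Of 16 bright conjugation and carboxylesterase genes these were the 2 called. Of 21 bright genes of metabolism and transport none rose. Those that fell included the fatty acid transporter *Slc27a2* (-2.06), the gluconeogenic *Fbp1* (-1.78), and the methionine cycle enzymes *Bhmt* (-1.57) and *Gnmt* (-0.94). Of 5 bright hepatocyte transcription factors none passed, with a median of -0.64.

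Plasma protein genes did not move as 1 block. Of 34 bright members 4 fell and 1 rose, with a median of -0.66. *Ttr*, transthyretin, ranged from 10.82 to 11.30 in EC, averaged 9.16 ± 0.13 in ET (SD, n = 4) and fell by 1.88 (adjusted p = 0.0168). *C8b*, a complement component, fell by 1.71, the apolipoproteins *Apof* by 1.58 and *Apoa1* by 0.92. *Itih3*, a hyaluronan-binding inhibitor, rose by 1.23 (adjusted p = 0.0313), and its relative *Itih4* ranged from 8.91 to 9.72 in EC and from 11.03 to 12.76 in ET (2.96 ± 0.57, adjusted p = 0.102). *Alb*, the defining hepatocyte transcript, read 12.81 to 13.12 in EC, 12.05 to 12.13 in ET replicates 1, 3 and 4 and 13.91 in ET replicate 2 (-0.42, adjusted p = 0.926). The groups overlapped for *Alb* through that channel alone. *Fgl1*, an acute phase protein of hepatocytes, rose by 1.75 (adjusted p = 0.0457), the only one of 16 bright acute phase genes that passed.

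Further hepatocyte genes were bright in EC and dim in ET. There were 12 that passed the background test in all 4 EC channels, failed it in at least 1 ET channel and were called lower. Of all probes 0.494% were called lower, but without that filter, which itself favors genes lower in ET. The count of 12 is therefore only a description. *Cyp4a12a*, a fatty acid hydroxylase, read 5.71 to 6.27 in EC, was not well above background in any ET channel, and was at least 4.53-fold lower (adjusted p = 0.0132) and the carboxylesterase *Ces1f* at least 5.15-fold lower (adjusted p = 0.035), both by the same kind of bound. *Otc*, a urea cycle enzyme, was at least 2.73-fold lower (adjusted p = 0.0324). *Cyp3a25* read 7.02 to 7.84 in EC and was called lower (adjusted p = 0.0177), but was well above background in 1 of 4 ET channels, so the size of its fall is not given.

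One of the 15 largest falls was of another kind. *Id4*, an inhibitor of basic helix-loop-helix transcription factors, read 12.45, 11.90, 11.89 and 12.47 in EC and 9.61, 9.27, 9.59 and 9.56 in ET, and fell by 2.67 ± 0.19 (6.37-fold, adjusted p = 0.0132). All 4 ET channels lay below every EC channel, with replicate 2 the lowest.

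**Figure D5:**
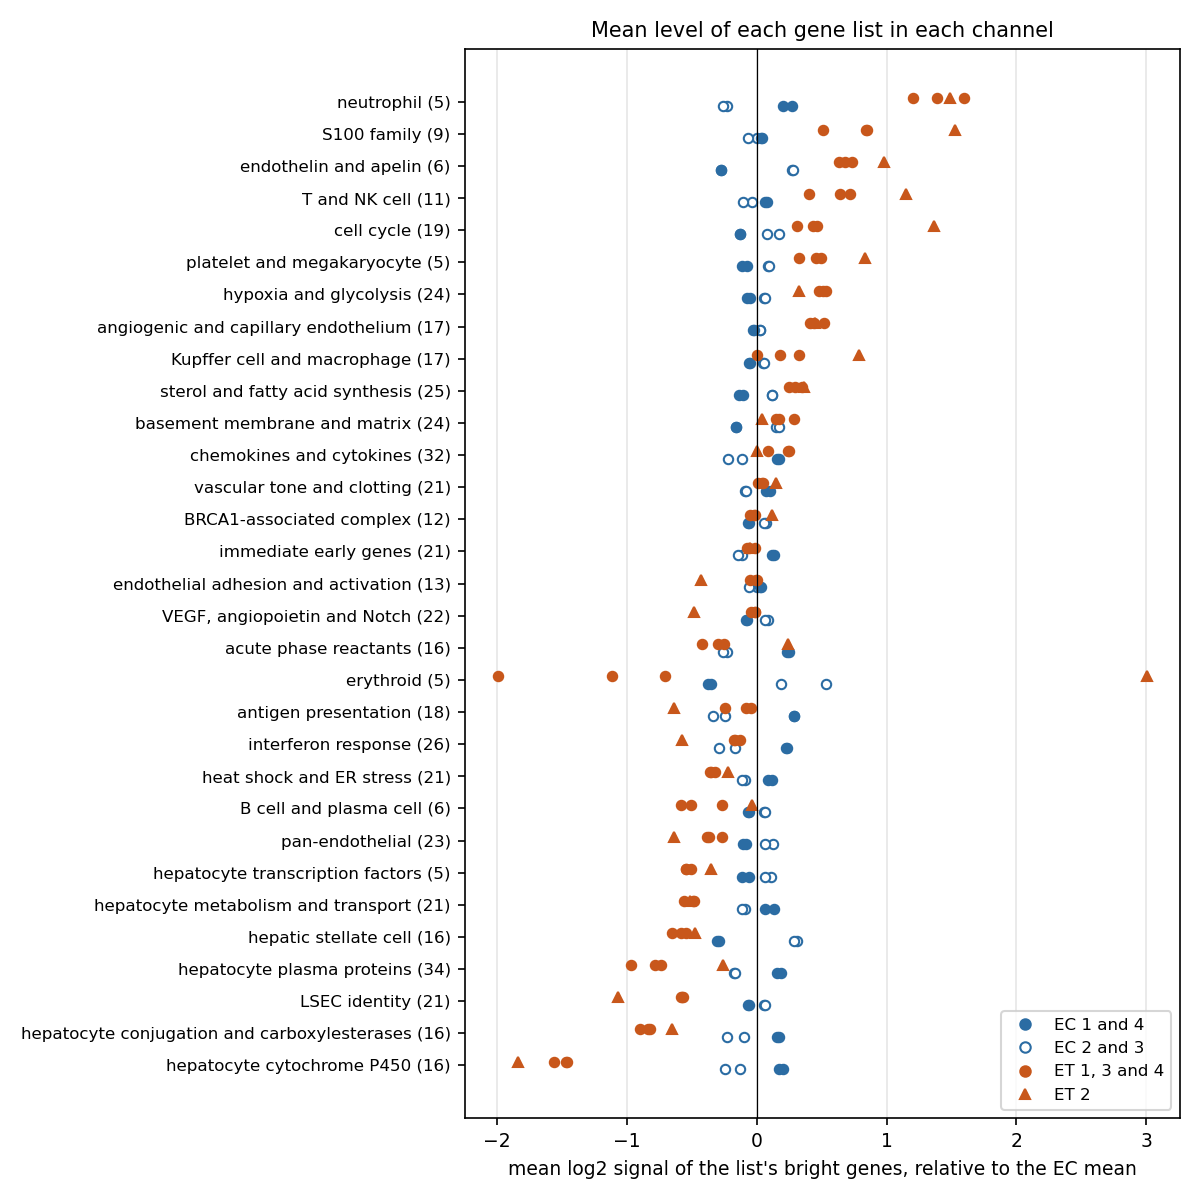
Mean log2 level of the bright members of each gene list in each of the 8 channels, drawn relative to the EC mean of that list (horizontal axis, log2), with 1 row per list and its number of bright genes in brackets. The hepatocyte lists are lower in every ET channel (orange) than in every EC channel (blue), the neutrophil markers are higher in every ET channel, and the ET replicate 2 point (triangle) is far right in the erythroid list.

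For stress and immune programs, call counts were read against 1.01% of bright genes called higher and 0.751% called lower, shares at which lists of this size would hold about none. None of 26 interferon response genes (median -0.26), 18 antigen presentation genes (-0.23), 21 immediate early genes (-0.03), 21 heat shock and ER stress genes (-0.23), 13 endothelial adhesion genes (-0.19) or 6 endothelin and apelin genes (0.23) passed. With each channel counted as a sample, 1 interferon gene and 1 adhesion gene were called higher, and 2 immediate early, 3 stress and 2 adhesion genes lower, against 5.14% and 4.3% of bright genes. Of 22 bright genes of VEGF, angiopoietin and Notch signaling *Pgf* alone passed, and of 21 of vascular tone and clotting *Vwf* alone. Of 12 bright partners of BRCA1 none passed. *Brca1* itself, a DNA repair gene, was not well above background in EC and was at least 6.39-fold higher in ET (adjusted p = 0.00233).

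Glycolysis genes lay mostly above 0. Of 24 bright hypoxia and glycolysis genes, 2 rose, against 1.01% of bright genes, 20 lay above 0, and in 17 all ET channels lay above all EC channels, against 12.8%. The 2 were *Ldha*, lactate dehydrogenase A (0.94, adjusted p = 0.0487), and *Tpi1*, triosephosphate isomerase (0.78, adjusted p = 0.0407). Of 32 chemokines and cytokines, the monocyte attractants *Ccl2* and *Ccl9* each rose by 0.94. *Ccl2* read 18.52 in all 4 ET channels, the top of the normalized scale.

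Such rises of just under 2-fold in bright probes need the dye beside them. Of the 197 called higher probes, 74 had a mean level over 12 and a difference of 0.8 to 1.1, limits chosen after the values were seen, with *Ldha*, *Ccl2* and *Ccl9* among them. In 73 of these 74 the Cy5 channel was also above the Cy3 channel on the tumor arrays, which held no endothelial fraction, with a median of 0.38. Over all called higher probes this was so in 83.8% (median 0.37) and over called lower probes in 53.8% (median 0.05), against 48% of all bright probes. The exception among the 74 was a probe of *Tpi1* other than the one given above (0.90), which read -0.06 on the tumor arrays. The tumor arrays compare other samples, so dye and biology cannot be told apart there either.

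The change in endothelial cells was set against that in the other cell types by an interaction term. It differed at 8 of 23427 probes (0.0341%) from the change in Ito cells, at 9 (0.0384%) from that in Kupffer cells and at 35 (0.149%) from the difference between the tumor groups. The tumor difference was primary tumor minus liver metastasis, which is not a TME change of a cell type. Array 4 of the Ito and of the Kupffer cells ran against its labels. Its Cy5 minus Cy3 differences correlated by -0.70 and -0.64 with the mean of arrays 1 to 3 across bright probes, which are not independent replicates. The endothelial array 4 gave 0.75, but EC replicates 1 and 4 were near-identical. Its differences correlated by 0.92 with those of array 1 and by 0.45 and 0.46 with those of arrays 2 and 3. Without array 4 of the Ito and Kupffer cells 282 and 53 probes differed. *Pcdh17* differed from all 3. Its endothelial rise of 2.95 stood against -0.41 in Ito cells, 0.29 in Kupffer cells and 0.04 in tumors, with differences of 3.36 (adjusted p = 0.000338), 2.66 (adjusted p = 0.00279) and 2.92 (adjusted p = 0.000204). *Cav1* and *Fabp1* differed from the tumor difference, by 3.07 (adjusted p = 0.0271) and -3.29 (adjusted p = 0.0333). *Cav1* was not called different from Ito (adjusted p = 0.474) or Kupffer cells (adjusted p = 0.93) over all arrays. *Fabp1* differed by -0.76 in Ito and -0.68 in Kupffer cells over all arrays, and its fall was not called different from theirs there. Without array 4 of those cells it differed by -1.25 and -1.58. Other large changes varied in Ito and Kupffer cells without array 4: *S100a8* differed by 3.33 and 1.40, *Mup9* by -2.40 and -2.68, and *Cav1* by 0.04 and 0.99. *Tlr12*, a toll-like receptor chosen after its values were seen, fell by 1.79 in endothelial cells (adjusted p = 0.00484). It also differed from all 3: from Ito cells (-2.24, adjusted p = 0.00144), Kupffer cells (-1.54, adjusted p = 0.0452) and the tumor difference (-1.70, adjusted p = 0.0053).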

How the data were processed

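Total RNA was amplified, labelled and hybridized to 2-colour Agilent mouse arrays. The authors deposited a linear intensity per spot and channel from Feature Extraction, already background-subtracted and dye-normalized, and a table of normalized intensity per probe, quantile-normalized per the study's methods. From the deposited intensities, log2 processed signals were taken without control and outlier spots, averaged per probe and quantile-normalized over all 32 channels. Genes were named by the arrays' own annotation, with positions on mm9. Groups came from the sample labels. ET was compared with EC by limma 3.58.1 in R 4.3.3 (lmFit, eBayes, no block) on 2 EC and 4 ET samples after near-identical EC channels were averaged, and with each of the 8 channels as a sample as an alternative. The replicate number marks the shared array: deviations from the group means correlated by 0.38, 0.33, 0.06 and 0.19 between same-numbered channels. The named genes were the 4 markers, the 15 largest called rises and falls with an official symbol, called or leading list members (up to 6 a list), and the 3 deepest hepatocyte falls that were dim in ET, each by its brightest probe. Some of these are not reported here. The members and gene lists were chosen with earlier results of these data known. Other normalizations, array blocks and left-out replicates were also run. On simulated data with 55664 probes, 75% of changes of 2 log2 units and 91% of changes of 4 were recovered with 9 false calls. The simulated samples were independent, and changes were placed in bright probes only. Near-alike ET channels and shared arrays were not simulated, so these shares need not hold for these data.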

Additional observations from a re-analysis of the deposited data

Results flagged for a closer look

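In 12 of 37 sets of 4 ET channels, 1 channel stood far from the others, where chance gives about 1 in 20. In 10 of these it was ET replicate 2. That channel was the highest for *Edn1* (13.29), *Apln* (11.67), *Pcdh17* (9.76) and *Mmp12* (8.64). It was the lowest for *Grem1* (10.11), *Vwf* (7.10), *Mup9* (12.09), *Mup20* (10.76), *Mup5* (9.37) and *Id4* (9.27). ET replicate 4 was the lowest for *Mki67* (8.35) and ET replicate 3 the lowest for *Cyp2a4* (5.09).

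Several changes in endothelial cells differed by the interaction test, either from the change in another cell type or from the tumor difference. *Pcdh17* differed by 3.36 from its change in Ito cells, by 2.66 from that in Kupffer cells and by 2.92 from the tumor difference. *Cav1* differed by 3.07 and *Fabp1* by -3.29 from the tumor difference only. Over all arrays neither was called different from its change in Ito or Kupffer cells.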

How the results depend on the processing

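The counts of bright probes called between ET and EC (197 higher, 158 lower) stayed within 1.5 times with quantile normalization over the 8 channels, with the deposited table and without ET replicate 2 (245 and 217), though without that channel 236 of the 355 calls were shared. Background correction by normexp gave 434 and 422 with quantile normalization and 477 and 456 with loess, 75th percentile scaling gave 16 and 43, a fit over all groups 16 and 32, and a fit on bright probes only, which tests fewer probes, 401 and 379. The methods' t-test gave 59 and 27 after Benjamini-Hochberg adjustment, and none passed the stricter limits of an adjusted p under 0.001 and 4-fold by limma, where 4214 had an unadjusted p under 0.05. At 2-fold and above, 84 rose and 111 fell. The replicate number marks the shared array, and with it as a block and each channel counted as a sample 605 and 573 probes were called, against 1096 and 970 without the block. With ET replicates 1, 3 and 4 also averaged, 0 and 0 passed. Leaving out 1 replicate gave 4 to 245 higher and 4 to 217 lower calls, with the fewest without replicate 4 and 6 and 7 without replicate 1. Counting channels and leaving out ET replicate 2 were alternatives chosen after seeing the data.

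The endothelial change differed from that of Ito cells at 8 probes, and at 25 with normexp, 4 with 75th percentile scaling, 5 with the deposited table and 4 with the block. Against Kupffer cells the counts were 9, 17, 2, 4 and 5. Without replicate 4 of the Ito and Kupffer cells they were 282 and 53. Against the tumors, 35 became 19 with 75th percentile scaling, 45 with normexp, 51 with the block and 35 with the deposited table. No direction of a named gene reversed. Of the 37 named genes, the 4 markers had no call to lose. Calls were lost by 12 with 75th percentile scaling, 25 in the fit over all groups and 26 with the methods' t-test. Leaving out replicate 1, 3 or 4 cost 26, 19 and 29 genes their call, and leaving out ET replicate 2 cost 3. With ET replicates 1, 3 and 4 averaged, all 33 called genes lost it. The cause was not tested. The block changed the side of the threshold for none of the 37.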
